A study of Rattus norvegicus with 6 samples.

Results

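The genes described here encode the non-collagen part of the cardiac extracellular matrix and the markers of the fibroblasts that make much of it. They were taken as a list of 52 gene symbols, and 47 of these stood in the count table, which holds 17487 symbols in all. Ctgf is an older name of Ccn2, so the list names 51 genes. Fbln2, Hspg2, Lamb1 and Nid1 were not analysed here. RNA was measured in hearts of adult male Wistar rats, an outbred strain, with 1 library per animal. The doxorubicin group (n = 3) was given doxorubicin hydrochloride, an anthracycline used against tumours that is toxic to heart muscle, at 3.75 mg/kg by tail vein every week for 4 weeks. The control group (n = 3) had received 0.9% sodium chloride on the same schedule.

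The matrix of the heart holds muscle cells, vessels and fibroblasts together and passes force between them. Structural glycoproteins, elastic fibre proteins, small leucine-rich proteoglycans and laminins form the scaffold. Matricellular proteins such as thrombospondins, osteopontin and periostin add little to its structure and instead signal to cells, and they are known for low levels in the healthy adult heart and for induction after injury. Lysyl oxidases crosslink the matrix, metalloproteinases cut it and TIMPs inhibit the metalloproteinases. In bulk tissue, a change in the number of cells of a type and a change in RNA per cell cannot be told apart.

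The libraries held 2219685 to 3508282 counts. Levels are given as CPM, counts scaled to a common library total after trimmed mean of M-values (TMM) normalization, and a fold change is a fitted log2 difference, doxorubicin minus control, with its standard error (SE). The lowest level taken as detectable, 3 counts, was 0.852 to 1.33 CPM. On the first principal component, with 38.4% of the variance, control library 1 lay at -43.26 and the other libraries between -4.83 and 26.55. That library also held 429 counts of the atrial myosin light chain gene Myl7, against 7 to 20 in the others.

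The clearest values in this group of genes were those of 3 secreted signalling proteins, Thbs1, Spp1 and Ccn2, which were higher in each doxorubicin heart than in any control heart by fitted folds of 4.44, 4.42 and 3.24. The bulk of the scaffold, including Fn1, Fbn1, Eln, Dcn, Lum, Ogn, the laminins and the fibroblast markers Pdgfra and Tcf21, overlapped between the groups. Sparc, Fbln5 and Nid2 were lower in each doxorubicin heart. None of these differences passed an adjusted p of 0.05. A low-count filter left 41 of the genes to test, and edgeR's quasi-likelihood test with Benjamini-Hochberg adjustment over all 9205 tested symbols called 0 of the 41, where it called 0.0543% of all symbols. At an unadjusted p under 0.05 there were 10 of the 41, 7 higher and 3 lower, where 8.1% of all tested symbols were (4.0% higher and 4.11% lower). For 7 of the 41, 4 higher and 3 lower, the groups did not overlap, where 13.4% of all symbols did not (6.39% higher and 7.06% lower). DESeq2 called 2 of the 44 genes with any counts, Spp1 and Thbs1, against 0.567% of all symbols it tested, and edgeR without the low-count filter called 1, Thbs1, against 0.467%. A fit with the replicate number as a block called 1, Spp1, against 0.141%, and limma voom called 0. The median log2 fold change of the 41 was 0.04, against 0.02 for all tested symbols. The filter bears on these counts, because Thbs1, Spp1, Postn and Loxl2 reached its level in all 3 doxorubicin libraries and in only 2 control libraries.

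The count of 10 genes at an unadjusted p under 0.05 fell to 6 without control library 1 and to 5 without control library 3. Without doxorubicin library 2 it was 10, 5 higher and 5 lower, and Spp1 and Thbs1 then passed the adjusted threshold in edgeR's test (adjusted p = 0.0117 and 0.014), where 0.373% of all symbols passed. The share of all symbols at an unadjusted p under 0.05 in these fits is not given here, so whether the group moved apart from all symbols was not tested.

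**Figure D1:**
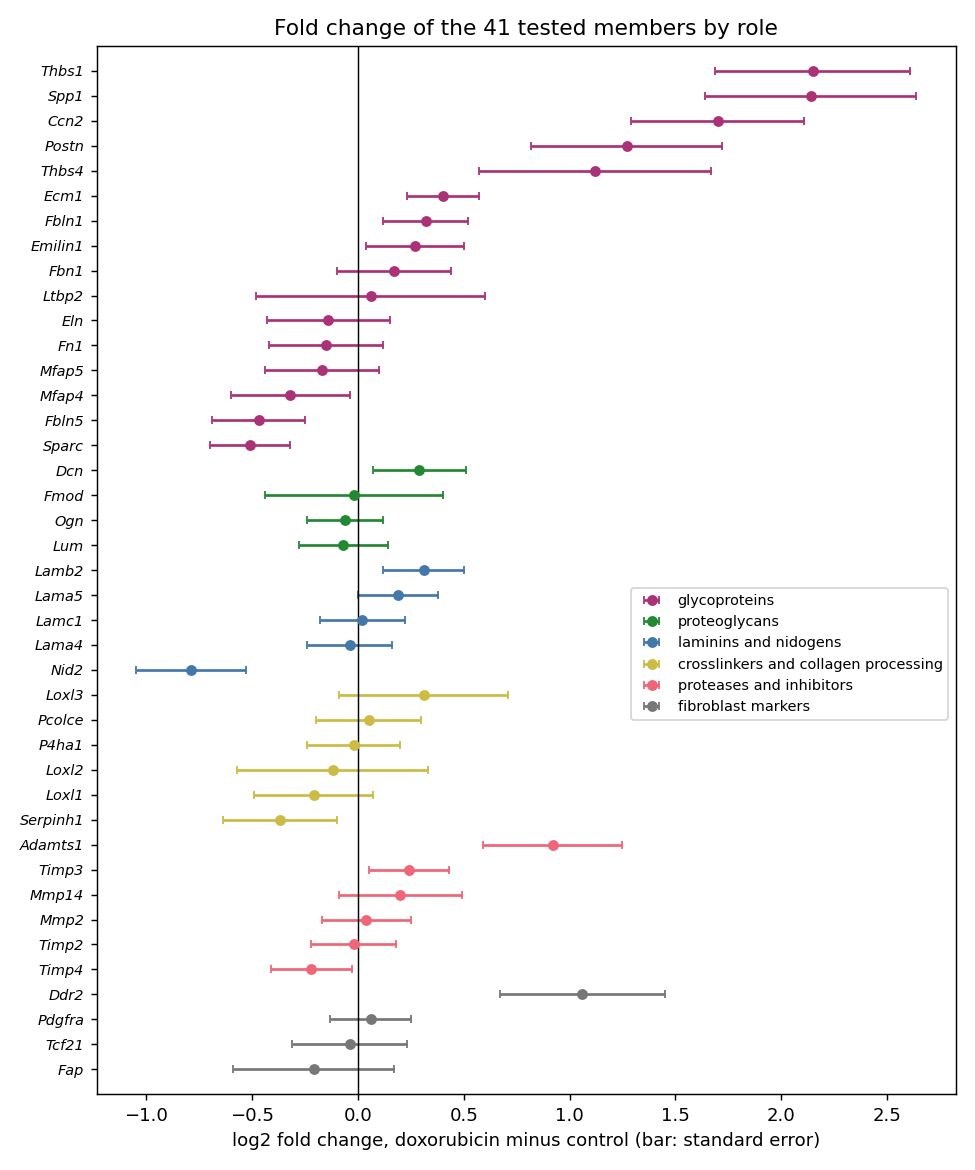
Fitted log2 fold change (doxorubicin minus control, x axis) of the 41 tested genes (y axis), coloured by role, with bars for the standard error. The 3 largest values are those of Thbs1 (2.15), Spp1 (2.14) and Ccn2 (1.70), the lowest is that of Nid2 (-0.79), and all proteoglycans lie between -0.07 and 0.29.

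Among the glycoproteins, 16 of 20 listed symbols were tested. Of these, 7 had an unadjusted p under 0.05, 5 higher and 2 lower, against 8.1% of all tested symbols. The groups did not overlap for 6, against 13.4% of all tested symbols. The list was chosen with earlier results of these data known. Thrombospondin 1, encoded by Thbs1, is a matricellular protein known to activate latent TGF-beta. Thbs1 stood at 3.05, 5.33 and 3.98 CPM in control libraries 1, 2 and 3 and at 30.8, 8.74 and 15.3 CPM in doxorubicin libraries 1, 2 and 3. All 3 treated hearts lay above all controls, and doxorubicin library 1 was the highest. The means were 4.12 ± 1.15 and 18.3 ± 11.3 CPM (SD, n = 3). They rest on few reads, 8 to 14 counts in a control library and 28 to 96 in a treated one. With a log2 fold change of 2.15 (SE 0.46), edgeR's adjusted p was 0.125. Without doxorubicin library 1 it was 1.56 (SE 0.45; edgeR adjusted p = 0.418).

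Spp1 encodes osteopontin, a phosphoprotein that binds integrins and is also made by macrophages. Spp1 stood at 8.02, 1.78 and 7.1 CPM in control libraries 1, 2 and 3 and at 35.0, 9.98 and 32.4 CPM in doxorubicin libraries 1, 2 and 3. The groups did not overlap, but doxorubicin library 2 lay close to the highest control. The log2 fold change was 2.14 (SE 0.50), with an edgeR adjusted p of 0.158.

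Ccn2, long known as connective tissue growth factor, encodes a matricellular protein induced by TGF-beta and by mechanical load. Ccn2 stood at 111.9, 72.0 and 145.1 CPM in control libraries 1, 2 and 3 and at 617.9, 243.4 and 209.3 CPM in doxorubicin libraries 1, 2 and 3. Doxorubicin library 1 stood far above the other treated hearts, which still lay above all controls. With 162 to 511 counts per control library, this was the best sampled of the 3 genes. The log2 fold change was 1.70 (SE 0.41), with an edgeR adjusted p of 0.207, and without doxorubicin library 1 it was 1.04 (SE 0.26; edgeR adjusted p = 0.291).

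The promoters of these 3 genes are shown because they had the smallest p-values of the group. Each run is the 250 bases before the annotated start of transcription, 5′ to 3′ on the gene's own strand, from RefSeq on the assembly GRCr8, matched by symbol. Capitals mark matches to short motifs, on either strand and at any position in the window. The motifs are GGAATG (a core of TEAD factor sites), CAGAC (a core of SMAD sites), TGANTCA (AP-1 sites) and TATAAA (the letters of a TATA box).
Thbs1, chr3:125510000-125510249, plus strand: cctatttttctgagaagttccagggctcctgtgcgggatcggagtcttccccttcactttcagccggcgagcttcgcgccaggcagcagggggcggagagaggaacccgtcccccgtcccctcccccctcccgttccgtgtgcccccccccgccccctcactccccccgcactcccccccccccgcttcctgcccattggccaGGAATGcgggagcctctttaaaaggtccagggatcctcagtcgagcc
Spp1, chr14:5619805-5620054, minus strand: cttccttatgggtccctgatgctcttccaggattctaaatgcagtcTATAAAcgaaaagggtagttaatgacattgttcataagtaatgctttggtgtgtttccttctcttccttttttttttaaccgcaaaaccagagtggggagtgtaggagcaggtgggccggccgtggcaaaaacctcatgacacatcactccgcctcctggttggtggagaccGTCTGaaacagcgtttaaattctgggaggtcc
Ccn2, chr1:22624615-22624864, minus strand: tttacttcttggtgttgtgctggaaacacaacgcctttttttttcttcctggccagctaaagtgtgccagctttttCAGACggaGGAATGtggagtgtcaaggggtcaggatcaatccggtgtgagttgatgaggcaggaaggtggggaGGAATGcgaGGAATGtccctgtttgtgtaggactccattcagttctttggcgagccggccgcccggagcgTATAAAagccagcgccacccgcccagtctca
The Ccn2 window held GGAATG 3 times, starting 166, 101 and 92 bases before the start, with CAGAC 174 bases and TATAAA 31 bases before it. The Thbs1 window held GGAATG 1 time, 47 bases before the start. In the Spp1 window CAGAC stood on the reverse strand 32 bases before the start and TATAAA 204 bases before it, and GGAATG was not found. Of 27457 rat promoter windows of the same length, 11.8% held GGAATG, 42.8% CAGAC, 6.36% TGANTCA and 13.1% TATAAA. Among the 29 tested genes of the group with a window in the table, 9 held GGAATG, 20 CAGAC, 2 TGANTCA and 7 TATAAA. These are matches of letters and do not show binding.

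Postn encodes periostin, a marker of activated cardiac fibroblasts. Postn stood at 2.29, 7.11 and 5.11 CPM in control libraries 1, 2 and 3 and at 13.5, 15 and 6.48 CPM in doxorubicin libraries 1, 2 and 3. The groups overlapped, since doxorubicin library 3 lay below control library 2. On 6 to 18 counts per control library, the log2 fold change was 1.27 (SE 0.45; edgeR adjusted p = 0.443). Thbs4, a thrombospondin of muscle and tendon, spread widely within the treated group, at 18.3, 8.11 and 2.95 CPM in doxorubicin libraries 1, 2 and 3 against 3.69 to 5.73 CPM in control. Its log2 fold change was 1.12 (SE 0.55; edgeR adjusted p = 0.624). Tnc, which encodes the injury-induced glycoprotein tenascin C, had 1 count in each control library, and 9, 9 and 3 in the treated libraries in order of number, too few for the filter. Without the filter its log2 fold change was 2.47 (SE 0.97; edgeR adjusted p = 0.465). Comp, a further thrombospondin family gene, had at most 5 counts in any library, and no difference was detectable at that depth.

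Ecm1 encodes a secreted glycoprotein that binds other matrix proteins. It had the smallest SE of the 10 genes and stood at 184.4, 166.2 and 187.1 CPM in control libraries 1, 2 and 3 and 253.3, 233.1 and 226.1 CPM in doxorubicin libraries 1, 2 and 3. All treated hearts lay above all controls, with a log2 fold change of 0.40 (SE 0.17; edgeR adjusted p = 0.55).

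Sparc encodes a collagen-binding matricellular protein and drew the most reads of all these genes. Sparc stood at 2509, 2069 and 2303 CPM in control libraries 1, 2 and 3 and at 1473, 1947 and 1403 CPM in doxorubicin libraries 1, 2 and 3. The treated hearts lay below all controls, with doxorubicin library 2 nearest to them. The log2 fold change was -0.51 (SE 0.19; edgeR adjusted p = 0.477), opposite in direction to Thbs1, Spp1 and Ccn2. Fbln5 encodes a fibulin needed for elastic fibre assembly. Its levels were 58.8, 45.8 and 46.9 CPM in control libraries 1, 2 and 3 and 38.5, 42.1 and 28.9 CPM in doxorubicin libraries 1, 2 and 3. Here too the groups did not overlap, and the log2 fold change was -0.47 (SE 0.22; edgeR adjusted p = 0.615), or -0.313 without doxorubicin library 3.

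The other tested glycoproteins overlapped between the groups. Fn1, the fibronectin gene, had a mean of 55.7 ± 14.7 CPM in control hearts and of 50.5 ± 19.0 CPM after doxorubicin (SD, n = 3). Its log2 fold change was -0.15 (SE 0.27). For the microfibril and elastic fibre genes the log2 fold changes were 0.17 for Fbn1 (fibrillin 1), -0.14 for Eln (elastin), 0.27 for Emilin1, -0.32 for Mfap4 and -0.17 for Mfap5. They were 0.32 for Fbln1, a fibulin of basement membranes and elastic fibres, and 0.06 for Ltbp2, a latent TGF-beta binding protein family gene. Eln was even across the control hearts, at 94.8 ± 4.64 CPM (SD, n = 3), and was 105.6, 111.7 and 40.7 CPM in doxorubicin libraries 1, 2 and 3. The low value of doxorubicin library 3 recurred in other genes: that library was the lowest of its group for 24 of the 41 genes. Doxorubicin library 2 was the highest for 24. The same shares over all symbols are not given here, so whether this was particular to these genes was not tested.

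**Figure D2:**
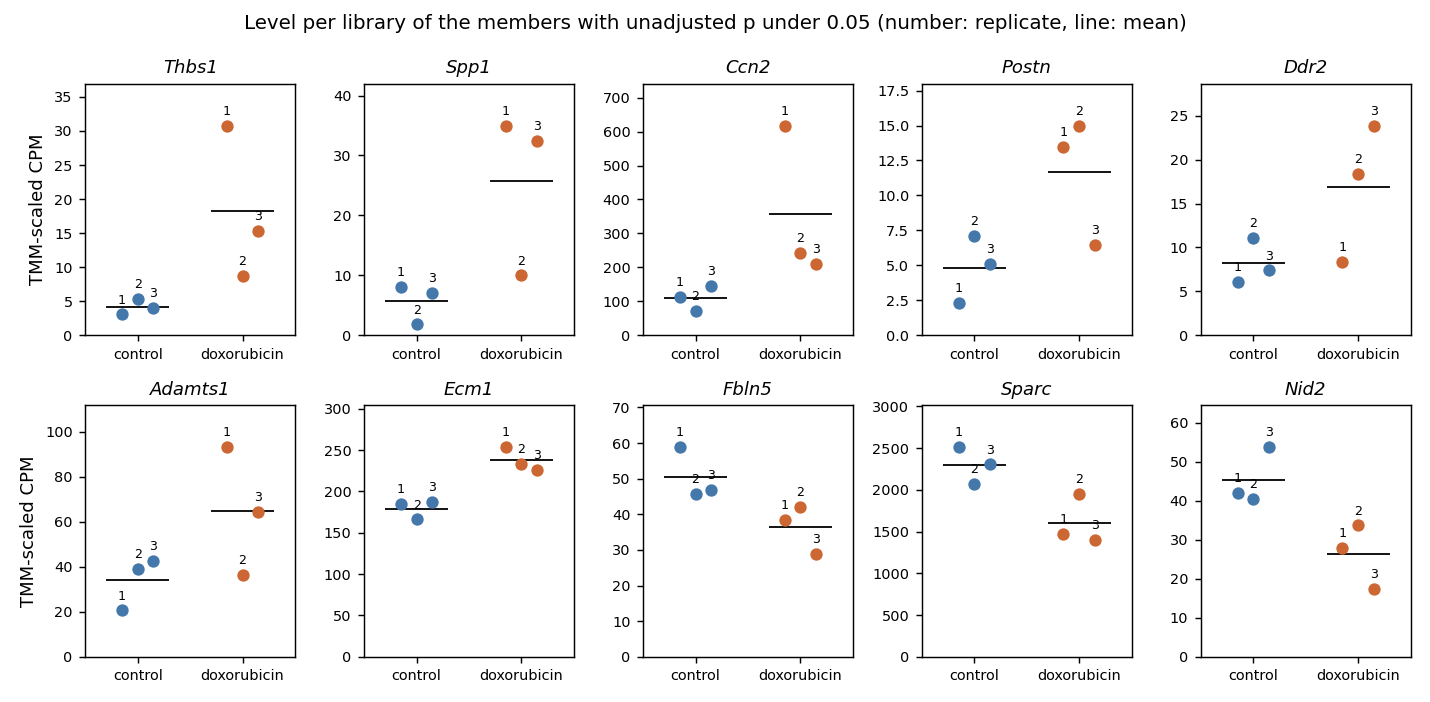
TMM-scaled CPM (y axis, from 0) of the 10 genes with an unadjusted p under 0.05, each point a library labelled with its replicate number and each line a group mean. Thbs1, Spp1, Ccn2 and Ecm1 have all doxorubicin points above all control points, Fbln5, Sparc and Nid2 have them all below, and Postn, Ddr2 and Adamts1 overlap.

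The small leucine-rich proteoglycans coat collagen fibrils and regulate their width and spacing. Of 7 listed proteoglycan symbols 4 were tested, with log2 fold changes from -0.07 to 0.29. An unadjusted p under 0.05 was found for 0 of them, against 8.1% of all symbols. Dcn, the decorin gene, stood at 521.6, 902.3 and 881.8 CPM in control libraries 1, 2 and 3 and at 830.1, 953.5 and 1038 CPM in doxorubicin libraries 1, 2 and 3. Only control library 1 lay apart, and the log2 fold change of 0.29 (SE 0.22; edgeR adjusted p = 0.771) was 0.08 without that library. Lum, the lumican gene, which stands next to Dcn in the rat gene order, had a log2 fold change of -0.07 (SE 0.21). Ogn and Fmod, which encode osteoglycin and fibromodulin, had -0.06 (SE 0.18) and -0.02 (SE 0.42), Fmod on 8 to 36 counts per library. Bgn, which encodes biglycan, and Vcan, which encodes the large proteoglycan versican and stood on 4 rows of the table, were listed at 0 in all 6 libraries. Heart tissue is known to express both genes, and whether these zeros come from the tissue or from the counting was not tested.

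Laminins and nidogens build the basement membrane around muscle cells and capillaries. Of 7 listed symbols 5 were tested. Nid2, which encodes nidogen 2, a linker between laminin and collagen IV networks, stood at 42.0, 40.4 and 53.7 CPM in control libraries 1, 2 and 3 and at 27.9, 33.7 and 17.4 CPM in doxorubicin libraries 1, 2 and 3. The treated hearts lay below all controls, on 59 to 189 counts per library. The log2 fold change was -0.79 (SE 0.26; edgeR adjusted p = 0.378), the lowest of the group. The laminin chain genes did not share that difference. Lamb2, the laminin beta 2 gene, was 934.8, 972.9 and 1083 CPM in control libraries 1, 2 and 3 and 1473, 1249 and 984.1 CPM in doxorubicin libraries 1, 2 and 3, so doxorubicin library 3 lay within the control range. Its log2 fold change was 0.31 (SE 0.19; edgeR adjusted p = 0.72), or 0.168 without doxorubicin library 1. The values were 0.19 for Lama5, 0.02 for Lamc1 and -0.04 for Lama4, with SEs of 0.19 to 0.20. Endothelial cells make much of this membrane, and of 11 endothelial markers 5 had a log2 fold change above 0 and 6 below, with a median of -0.10. An unadjusted p under 0.05 was found for 2 of them, Cldn5 and Tie1, both lower, against 8.1% of all symbols. Cldn5, a tight junction gene, was 58.5 to 74.1 CPM in control and 17.1 to 41.1 CPM in doxorubicin hearts, and Tie1 was 194.1 to 219.9 and 106.1 to 175.9 CPM. The 11 markers summed to 1515 to 1785 CPM in control and 1281 to 1752 CPM in doxorubicin hearts, and their part in the Nid2 value was not tested.

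Crosslinking and collagen processing genes gave 0 of 6 tested at an unadjusted p under 0.05, against 8.1% of all symbols. Their log2 fold changes ran from -0.37 to 0.31. Serpinh1 encodes HSP47, the collagen chaperone, and stood at 417.4, 332.3 and 389.1 CPM in control libraries 1, 2 and 3 and at 199.7, 458.7 and 226.1 CPM in doxorubicin libraries 1, 2 and 3. Doxorubicin libraries 1 and 3 lay below all controls and library 2 above them, and the log2 fold change was -0.37 (SE 0.27; edgeR adjusted p = 0.766). It was -0.823 without doxorubicin library 2, -0.145 without library 1 and -0.197 without library 3 of that group. The lysyl oxidase family members Loxl1, Loxl2 and Loxl3 had log2 fold changes of -0.21, -0.12 and 0.31. For Pcolce, which enhances procollagen cleavage, and P4ha1, a prolyl hydroxylase subunit, they were 0.05 and -0.02. Lox itself, the founding lysyl oxidase gene, was removed by the filter. Control libraries 1, 2 and 3 held 4, 2 and 7 Lox counts, and doxorubicin libraries 1, 2 and 3 held 8, 11 and 11. The groups did not overlap in these few counts, nor for Tnc, and without the filter the Lox log2 fold change was 1.01 (SE 0.67; edgeR adjusted p = 0.798).

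Of the proteases and their inhibitors, 6 of 7 were tested and 1 had an unadjusted p under 0.05, against 8.1% of all symbols. Adamts1 encodes a secreted protease that cuts proteoglycans such as versican. It stood at 20.6, 39.1 and 42.6 CPM in control libraries 1, 2 and 3 and at 93.1, 36.5 and 64.3 CPM in doxorubicin libraries 1, 2 and 3. Doxorubicin library 2 lay within the control range and the other treated hearts above it, and the log2 fold change was 0.92 (SE 0.33; edgeR adjusted p = 0.451), or 0.563 without doxorubicin library 1. Mmp2, the gelatinase A gene, stood at 231.4, 206.1 and 247.9 CPM in control libraries 1, 2 and 3 and at 195.8, 309.2 and 199.2 CPM in doxorubicin libraries 1, 2 and 3, on both sides of the controls. Its log2 fold change was 0.04 (SE 0.21), and it was -0.021 without control library 2 and -0.20 without doxorubicin library 2. Mmp14, a membrane-bound protease that activates Mmp2, had 0.20 (SE 0.29). The inhibitor genes Timp2, Timp3 and Timp4 had log2 fold changes of -0.02, 0.24 and -0.22, each with an SE of 0.19 or 0.20. Timp1, a further inhibitor known to be expressed in heart, was listed at 0 in all 6 libraries, with the same limit as for Bgn and Vcan.

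The fibroblast markers showed no common shift. Pdgfra, the receptor used to mark resident cardiac fibroblasts, stood at 64.2, 76.4 and 84.6 CPM in control libraries 1, 2 and 3 and at 67.1, 86.7 and 81.9 CPM in doxorubicin libraries 1, 2 and 3, with the groups overlapping almost fully. Its log2 fold change was 0.06 (SE 0.19), and it was -0.032 without control library 1. Tcf21, a transcription factor gene of resident fibroblasts, had -0.04 (SE 0.27), and Fap, a serine protease gene of activated fibroblasts, had -0.21 (SE 0.38). Ddr2 encodes a collagen receptor kinase. Ddr2 stood at 6.11, 11.1 and 7.38 CPM in control libraries 1, 2 and 3 and at 8.35, 18.4 and 23.9 CPM in doxorubicin libraries 1, 2 and 3. Here doxorubicin library 1, the highest for Thbs1 and Ccn2, lay within the control range. The log2 fold change was 1.06 (SE 0.39; edgeR adjusted p = 0.477). The 4 markers summed to 98.5 to 134.9 CPM in control and 113.3 to 140.7 CPM in doxorubicin hearts.

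**Figure D3:**
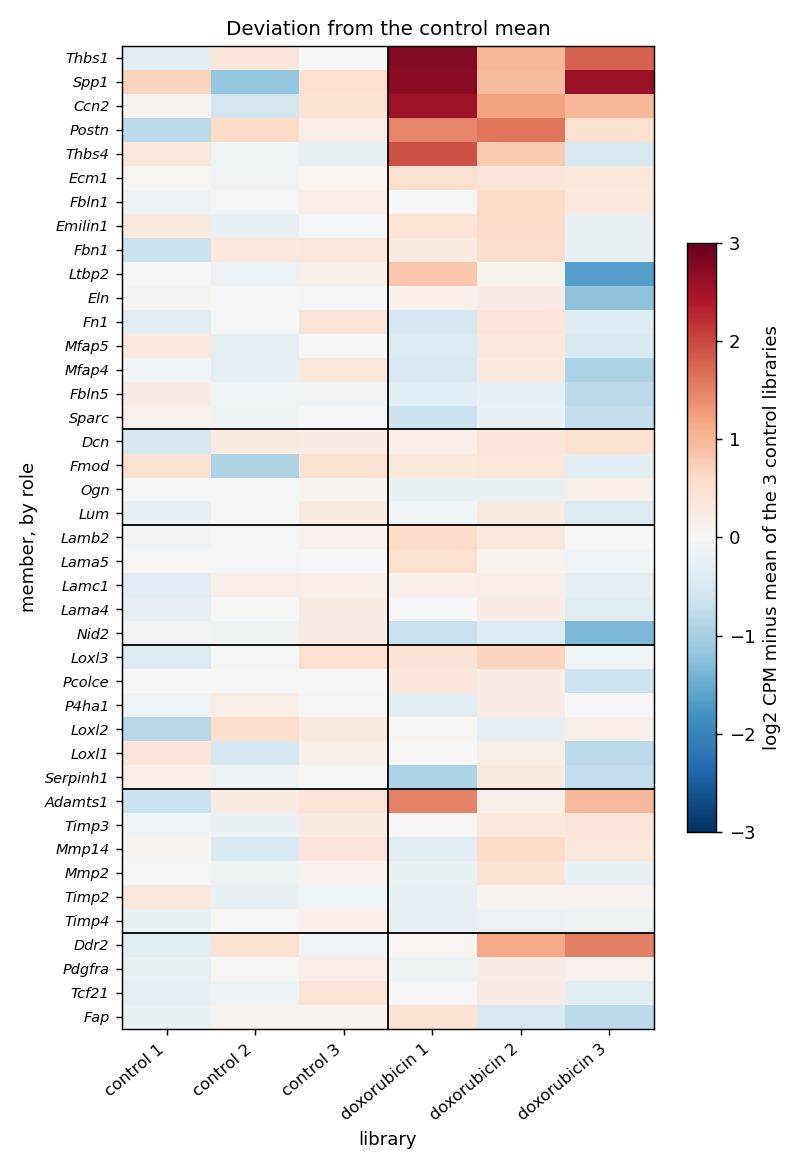
Log2 CPM of each of the 41 tested genes (rows, grouped by role with lines between roles) in each library (columns), minus the mean of the 3 control libraries, with red above and blue below that mean. Doxorubicin library 1 is reddest for Thbs1, Spp1, Ccn2, Thbs4 and Adamts1, and doxorubicin library 3 is the lowest of its group for 24 of the 41 genes. The share over all symbols is not given here.

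The treated hearts did not share a single profile. Among the 10 genes at an unadjusted p under 0.05, doxorubicin library 2 lay nearest to the control mean for 6, library 3 for 3 and library 1 for 1. Over all 746 symbols at that threshold, library 2 was nearest for 56.4%. Over all 41 tested genes the order was another, with library 3 nearest for 17, library 1 for 13 and library 2 for 11. The 47 genes together summed to 7165 to 8040 CPM in control and 6555 to 8301 CPM in doxorubicin hearts.

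Markers of other cell types were read beside these values. The 14 macrophage markers, of which 11 were tested and 1 was at 0, summed to 276.8 to 292.1 CPM in control and to 332.9, 545.4 and 364.6 CPM in doxorubicin libraries 1, 2 and 3. Of the 11 tested, 10 had a log2 fold change above 0, with a median of 0.35. An unadjusted p under 0.05 was found for 3, where 8.1% of all symbols had one. All 3 were higher: Lyz2 (0.82), Cd163 (1.15) and Mrc1 (0.82). Their edgeR adjusted p was 0.244, 0.492 and 0.586, and the groups overlapped for Cd163. Among the treated hearts, the sum was highest in doxorubicin library 2, and so was each tested macrophage marker except Cd163. Lyz2 stood at 225.3 CPM there. Cd163 was the lowest of the treated hearts there, at 8.11 CPM. So were 4 of the 41 tested matrix and fibroblast genes, Spp1, Thbs1, Adamts1 and Loxl2. The 11 smooth muscle and pericyte markers summed to 716.7 to 1086 CPM in control and 818.2 to 1088 CPM in doxorubicin hearts. Mesothelial and epicardial markers summed to 23.9 to 40.6 CPM over all libraries. Nearly all of it was Wt1, at 23.0 to 39.2 CPM, the 1 marker tested of the 8 listed (log2 fold change -0.30, SE 0.24). The 6 valve and tendon markers in the table summed to 61.8 to 122.2 CPM in control and 49.5 to 73.9 CPM in doxorubicin hearts. Most of that sum was Scx, at 48.6 to 119.1 CPM over all libraries (log2 fold change -0.53, SE 0.25), while Tnmd and Chodl were at 0. The 11 cardiomyocyte markers in the table summed to 146311 to 177472 CPM in control and 136901 to 149450 CPM in doxorubicin hearts. Of these 11, 8 had a log2 fold change below 0, and 5 had an unadjusted p under 0.05, against 8.1% of all symbols. Of the 5, Myh7, the slow myosin heavy chain gene, was higher (1.94), and Myh6 (-0.73), Ckm (-0.68), Mb (-0.59) and Tnni3 (-0.45) were lower. The 7 atrial markers summed to 332.8 to 882.1 CPM in control and to 3474, 445.6 and 1183 CPM in doxorubicin libraries 1, 2 and 3, highest in the library that was also highest for Thbs1 and Ccn2. That high sum came from Nppa, at 3252 CPM in doxorubicin library 1. All other atrial markers in that library stood between 0 (Bmp10) and 166.6 CPM (Dkk3), with Myl7 at 6.42 CPM. In doxorubicin library 2 Nppa, at 277.4 CPM, lay within the control range of 160.7 to 444.5 CPM. Of the 5 atrial markers tested, 2 had a log2 fold change above 0, Nppa (2.18, SE 1.03) and Dkk3 (0.57, SE 0.21). The 3 below were Myl7 (-3.73, SE 1.94), Stard10 (-1.01, SE 0.27) and Myl4 (-0.88, SE 1.13). Control library 1 was the highest of all libraries for Myl7 and Myl4, at 163.8 and 68.4 CPM. Control libraries 2 and 3 held 4.44 and 2.84 CPM of Myl7 and 8.0 and 6.53 CPM of Myl4. The groups overlapped for Nppa, Myl7 and Myl4. The 8 erythroid markers summed to 7434, 2040 and 2571 CPM in control libraries 1, 2 and 3 and to 700.7, 2369 and 2735 CPM in doxorubicin libraries 1, 2 and 3. All 7 tested erythroid markers had a log2 fold change below 0, with a median of -1.07. An unadjusted p under 0.05 was found for 1 of them, Hba-a3, against 8.1% of all symbols. The part of these cell types in the matrix values was not tested.

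Further matrix genes outside the list were counted in the same fit. Of 178 symbols 107 were tested, with 0 past the adjusted threshold in edgeR's test and 10 at an unadjusted p under 0.05, 5 higher and 5 lower, which is 9.35% against 8.1% of all symbols. Their median log2 fold change was -0.02. Sdc4, a cell surface proteoglycan gene, was 47.0, 28.4 and 39.2 CPM in control libraries 1, 2 and 3 and 110.4, 56.8 and 52.5 CPM in doxorubicin libraries 1, 2 and 3. Its log2 fold change was 0.93 (SE 0.29; edgeR adjusted p = 0.353), and Dkk3, a secreted glycoprotein gene that is also in the atrial list, had 0.57 (SE 0.21). The smallest p-values among lower values were those of Adam19, a membrane metalloprotease gene (-0.71, SE 0.20), Meox2, a homeobox gene (-0.64, SE 0.25), and Ccn5, a further CCN family gene (-1.20, SE 0.49, on 4 to 13 counts per library). For these 5 genes, which were named for their small p-values, the groups did not overlap. Of the 107 tested further matrix genes, 16 had groups that did not overlap, 9 higher and 7 lower, against 13.4% of all tested symbols.

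Across processing choices, the 10 genes with an unadjusted p under 0.05 kept their direction in all 16 alternatives. Thbs1 ranged from 1.56 to 2.5 on the log2 scale, Spp1 from 1.78 to 2.54, Ccn2 from 1.04 to 1.98 and Nid2 from -1.0 to -0.55. The unadjusted p of Thbs1, Spp1 and Ccn2 stayed under 0.05 in all 16, while Fbln5 reached it in 4 and Ecm1 in 11. The 10 genes were picked by their p in the same libraries that the alternatives refit. A kept direction was therefore likely in advance and is no independent support.

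**Figure D4:**
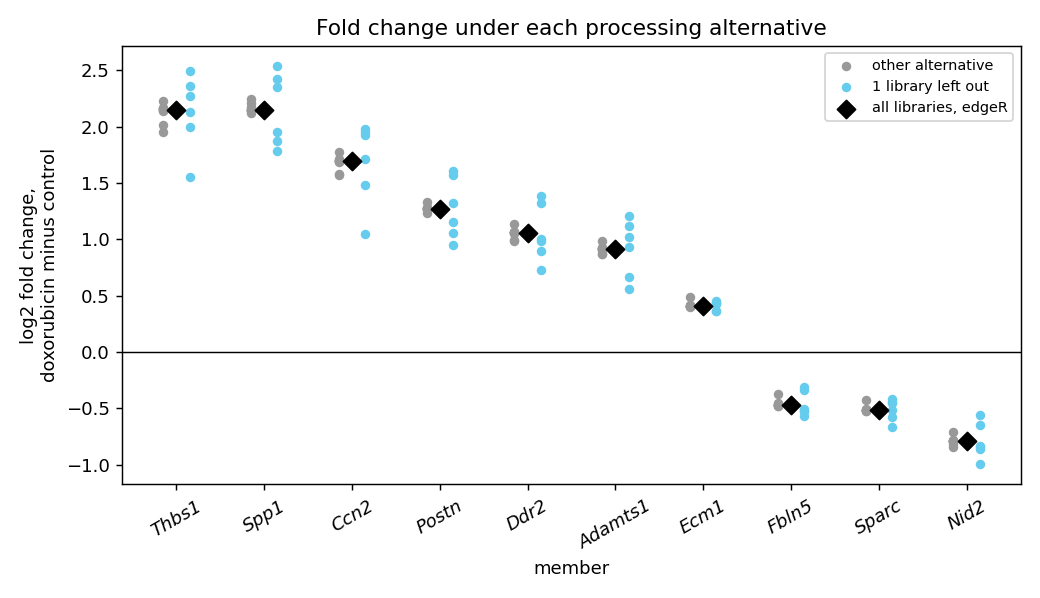
Log2 fold change (doxorubicin minus control, y axis) of the 10 genes (x axis) with all libraries in edgeR (black diamond), with 1 library left out (blue) and under the other alternatives (grey). Every point keeps the sign of its diamond, and Ccn2 is lowest, at 1.04, without doxorubicin library 1.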

How the data were processed

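The authors deposited raw read counts per gene row for 6 heart libraries, with no normalization. The submitters' processing notes name FastQC, Trimmomatic, STAR, HTSeq and the build mRatBN7.2; the counting mode, the use of strand and the annotation were not given in the sources used here. The 18473 rows were summed per symbol to 17487 symbols. mRNA libraries were made from total RNA and sequenced on an Illumina NovaSeq, per the labels' protocols. The labels call the samples biological replicates and describe no pairing or batch.

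Doxorubicin was compared with control by the quasi-likelihood test of edgeR (version 4.0.16, under R 4.3.3), using TMM, robust dispersion and filterByExpr (minimum count 10, minimum total 15), on all symbols, with Benjamini-Hochberg adjustment at 0.05. The SE is the absolute log2 fold change divided by the square root of F. Log2 CPM used a prior count of 2. The script was tested on simulated data. Per-library values are given for genes with an unadjusted p under 0.05 or with groups that do not overlap, and for the gene with the most reads in each role; Thbs4 and Eln were added after their values were seen. Of the further matrix genes, those with the smallest p in each direction are named, except 1 that is not reported here. Alternatives included DESeq2 1.42.0 and limma 3.58.1 (voom). Gene and promoter names came from RefSeq on GRCr8, where 98.0% of symbols matched. The genes and lists were chosen with earlier results of these data known. Python 3.11.15 with pandas 2.3.3 and matplotlib 3.10.9 made tables and figures. Levels are not divided by transcript length, so they are compared between libraries and not between genes, and floors cover counting error only.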

Additional observations from a re-analysis of the deposited data

How the results depend on the processing

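In all, 16 alternatives were run. Against 0 genes of the group past the adjusted threshold in edgeR's test (10 at an unadjusted p under 0.05), the fit with no filter gave 1, DESeq2 gave 2 and the replicate block gave 1 (Spp1, edgeR adjusted p = 0.0229). Leaving out 1 library at a time gave 0 to 2. It also gave 5 to 10 genes at an unadjusted p under 0.05 and 10 to 15 (against 7) whose groups did not overlap, a count that grows when fewer libraries have to be separated. For the further matrix genes, no filter gave 1 past the adjusted threshold and 16 at an unadjusted p under 0.05, DESeq2 gave 1 past the adjusted threshold, and leaving out 1 library gave 0 to 1 and 8 to 17. The shares of all symbols at an unadjusted p under 0.05, or without overlap, in these alternatives are not given here. Whether the group moved apart from all symbols, and the cause of the differences between alternatives, was not tested. Mmp2 reversed to -0.021 without control library 2 and to -0.20 without doxorubicin library 2, and Pdgfra to -0.032 without control library 1 and to -0.002 without doxorubicin library 2; their highest values with 1 library left out were 0.158 and 0.171. Scaling by library size only moved the median of all symbols from 0.02 to 0.10 and that of the group from 0.04 to 0.12. The labels describe no pairing of the animals. Correlations of same-numbered libraries' deviations from their group means were 0.021, -0.185 and -0.056, and those of differently numbered libraries were -0.122 to 0.195. With 3 libraries per group, these values cannot decide whether animals were paired. Depth limits the genes with few reads: Comp, Tnc and Lox had 11, 24 and 43 counts over the 6 libraries, and Loxl2, Ltbp2, Thbs4, Loxl3, Fmod and Postn 99 to 152.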
